A study of Bos taurus with 6 samples.

Results

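The genes described here encode the proteins that carry out and steer the splicing of pre-mRNA. They were the features of the deposited expression table whose symbol begins with SRSF, HNRNP, SF3A, SF3B, SNRP, PRPF or U2AF, or is LSM followed by a digit. The rule used names and no measured value. It took 72 of the 18014 features (the members), under 71 symbols, of which 11 were SR protein genes, 17 were hnRNP features and 44 belonged to the snRNP core. The core comprised 23 SNRP and LSM genes, 9 SF3 and U2AF features and 12 PRPF genes. The rule took no feature named HNRNPA1, HNRNPC, SNRPD1, SNRPE, U2AF1 or SF3B4, and these genes are not analysed here.

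RNA was measured by poly(A) RNA-seq in primary bovine vaginal epithelial cells (BVECs), which line the vagina of the cow and were grown from tissue to a confluent layer. Treated cells were incubated for 4 h with the Lactobacillus strain SQ0048 at 1000000000 CFU/ml, and control cells received medium without bacteria. There were 3 libraries in each group, termed biological replicates in the study. No source used here ties them to separate cultures or donors, so the spread behind each p-value may be technical.

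The epithelial keratin KRT18 had 1273 ± 42.6 FPKM in control and 1581 ± 54.9 FPKM in treated libraries (SD, n = 3). Of the 11 epithelial markers, all tested, 2 rose and 1 fell (18.2% and 9.09%, against 8.59% and 15.8% of all tested features), and the list summed to 5045 to 5475 FPKM in the control libraries and 5965 to 6256 FPKM in the treated ones. The 9 fibroblast markers summed to 59.1 to 64.0 FPKM and 58.6 to 60.5 FPKM, respectively. COL3A1 made up most of that sum, with 47.1 to 54.3 FPKM in every library, and PDGFRB was the lowest, at 0.01 to 0.06 FPKM. No marker of either list was at 0 in any library. FPKM is the number of fragments of a feature corrected for the length of its exons and for how many fragments the library mapped. All FPKM values of a library summed to 343933 to 361055 in the control group and 372034 to 378772 in the treated group, and the table holds no counts, so the number of reads behind each value is unknown. Read numbers are given in the study as group means only. Of the 9 fibroblast markers 6 were tested, of which COL1A1, COL1A2 and THY1 rose (3 of 6) and POSTN fell (1 of 6), all of them below 5 FPKM in each library. Over all settings tried, the highest adjusted p was 0.0779 for COL1A1, 0.0683 for COL1A2, 0.0844 for THY1 and 0.0615 for POSTN. The epithelial markers that rose, KRT18 and KRT8, did not pass after quantile normalization (adjusted p = 0.324 and 0.2). GRHL2, the one that fell, reached 0.0626. The part of these cell markers in the results below was not tested. In these bulk samples, fewer cells of a type and less RNA per cell cannot be told apart.

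Splicing is carried out by the spliceosome, which is built on an intron from small nuclear ribonucleoproteins (snRNPs), each a small RNA with a ring of Sm or LSM proteins. The SF3 and U2AF proteins mark the branch site and the 3′ splice site, and many of the PRPF proteins act as the complex is assembled and rearranged. SR proteins mostly favor the use of nearby splice sites, and hnRNPs bind nascent RNA and often oppose it, so the balance between them can decide which exons are kept. Many SR protein and hnRNP transcripts also carry exons whose inclusion leads to decay of the transcript, which is a known means by which these genes hold their own levels. A gene-level FPKM sums over isoforms, so exon use was not measured here.

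The share of splicing genes that rose or fell was near the share among all features, and most changes were small. Of the 72 features, 70 averaged at least 0.5 FPKM over the 6 libraries and were tested. Of these, 4 rose, 9 fell and 57 passed the test in neither direction, at an adjusted p below 0.05. The genes that rose were SRSF7, SNRPB, SF3A2 and LSM10, which made up 5.71% of the members against 8.59% among all 13144 tested features. The genes that fell were HNRNPU, HNRNPA3, HNRNPM, HNRNPK, SNRPN, LSM6, LSM11, LSM14A and PRPF4B, which made up 12.9% against 15.8% of all tested features. The median log2 fold change was -0.12 for the members and -0.08 for all tested features. The study used a threshold of a 2-fold change with an unadjusted p below 0.05, applied with edgeR. In the limma test used here, a single member passed that threshold, LSM10, against 5.52% of all tested features. The tests differ, so this share is not the study's own.

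The treated libraries all lay above the control libraries for 8 of the 70 members (11.4%) and all below them for 21 (30.0%). Among all tested features these shares were 17.4% and 28.3%. The split of calls depended on how the libraries were scaled. It was 4 higher and 9 lower on the deposited FPKM, 3 and 15 after rescaling to TPM, 5 and 5 with size factors, and 3 and 8 after quantile normalization. In the same order, the share of lower calls among all called features was 64.7%, 77.7%, 51.8% and 54.5%. The counts also changed when 1 library was left out, to 1 to 5 members higher and 2 to 13 lower. Among all tested features, 4.27 to 7.25% were then higher and 8.58 to 15.2% lower, against 8.59% and 15.8% with all 6 libraries. Leaving out control replicates 1, 2 and 3 gave 1 and 2, 3 and 5, and 1 and 3 members. Leaving out treated replicate 1 or treated replicate 3 gave 2 and 2, and leaving out treated replicate 2 gave 5 and 13. SRSF7 and HNRNPU held their calls under every setting tried. They were the only members still called when the replicate number was added to the model as a block. The lost calls listed for single genes below leave out that setting unless it is named.

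**Figure D1:**
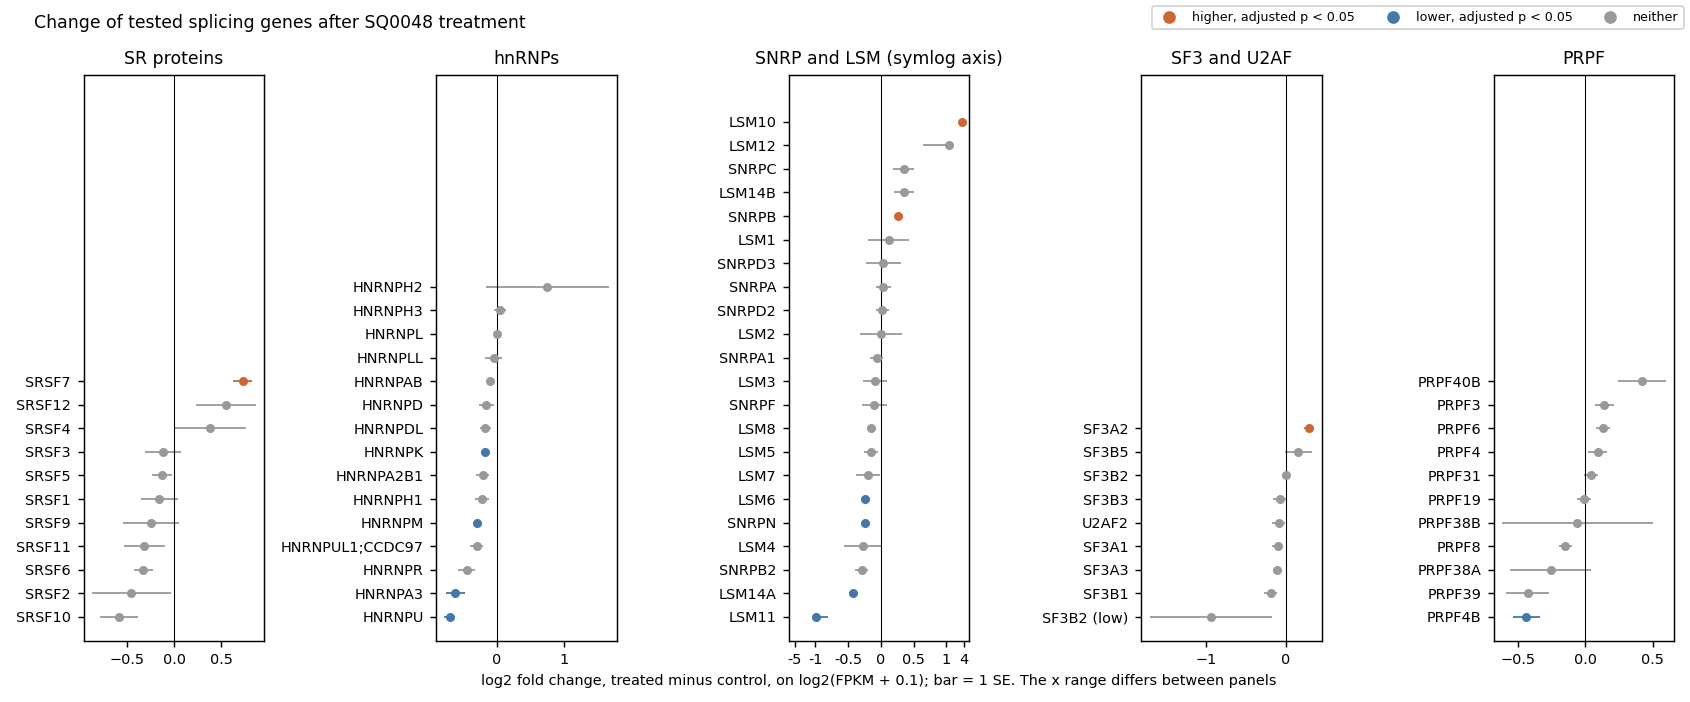
Each point is the log2 fold change, treated minus control, on log2(FPKM + 0.1) of 1 tested member, with a bar of 1 standard error, colored by its call and shown in a panel for each of the 5 classes. Most points are gray and lie close to 0, and the wide bars belong to genes whose libraries differed within a group, such as HNRNPH2 and PRPF38B. SNRPG, which is listed at 0 in 1 library, is not plotted.

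Expressed by level, the members were abundant. Their median was 27.6 FPKM over the 6 libraries, against 5.75 FPKM for all tested features. Among the 17 members averaging 50 FPKM or more, 1 rose and 3 fell (5.88% and 17.6%), and their median log2 fold change was -0.13. Of the 1077 tested features at that level, 19.6% rose and 7.80% fell, with a median of 0.09. At 5 to 20 FPKM, 0 of 17 members rose and 2 fell (11.8%), against 8.92% and 20.5% of all tested features. At 20 to 50 FPKM, 2 of 29 rose (6.9%) and 3 fell (10.3%), against 11.8% and 17.4%. Below 5 FPKM, 1 of 7 rose and 1 fell (14.3% each), against 5.57% and 13.3%. In that order, the medians of members and all tested features were -0.05 and -0.09, -0.11 and -0.03, and -0.26 and -0.14. These are descriptions of small counts, and the differences were not tested. Across the 70 tested members, the log2 fold change had a Pearson r of -0.21 and a Spearman rho of -0.10 with the mean log2 level, values that share the same 6 libraries.

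The summed FPKM of all members was 3228, 3269 and 3301 in the control libraries and 2974, 3017 and 3031 in the treated libraries. The groups did not overlap, and the mean went from 3266 ± 36.5 to 3008 ± 29.7 (SD, n = 3), a change of -7.91% (-7.10% without SNRPG, a check added after the data were seen). As a share of all FPKM in a library, the members took 0.905 to 0.960% in the control group and 0.785 to 0.815% in the treated group. The hnRNPs made up most of the difference. Their sum was 1424, 1399 and 1508 FPKM in the control libraries and 1186, 1301 and 1267 FPKM in the treated libraries, with means that differed by -13.3% and no overlap. The other classes overlapped between the groups, with differences of means of -6.37% for SR proteins, -2.37% for SNRP and LSM genes (1.80% without SNRPG, which is listed at 0 in treated replicate 2), -2.10% for SF3 and U2AF and -5.26% for PRPF genes. A sum is carried by its most abundant genes and was given no p-value. The sums also depend on scaling. Taken as shares of all FPKM in a library, every class lay lower in all treated libraries than in all control libraries. The SR proteins took 0.128 to 0.143% in the control group and 0.110 to 0.123% in the treated group. SNRP and LSM genes took 0.233 to 0.249% and 0.205 to 0.232%. SF3 and U2AF features took 0.0921 to 0.0931% and 0.0841 to 0.0866%, and PRPF genes 0.0475 to 0.053% and 0.0443 to 0.0468%. The size factors were 1.03 to 1.04 in the control libraries and 0.960 to 0.993 in the treated ones. Divided by these factors, the sums of all members overlap between the groups, and those of the hnRNPs still do not.

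**Figure D2:**
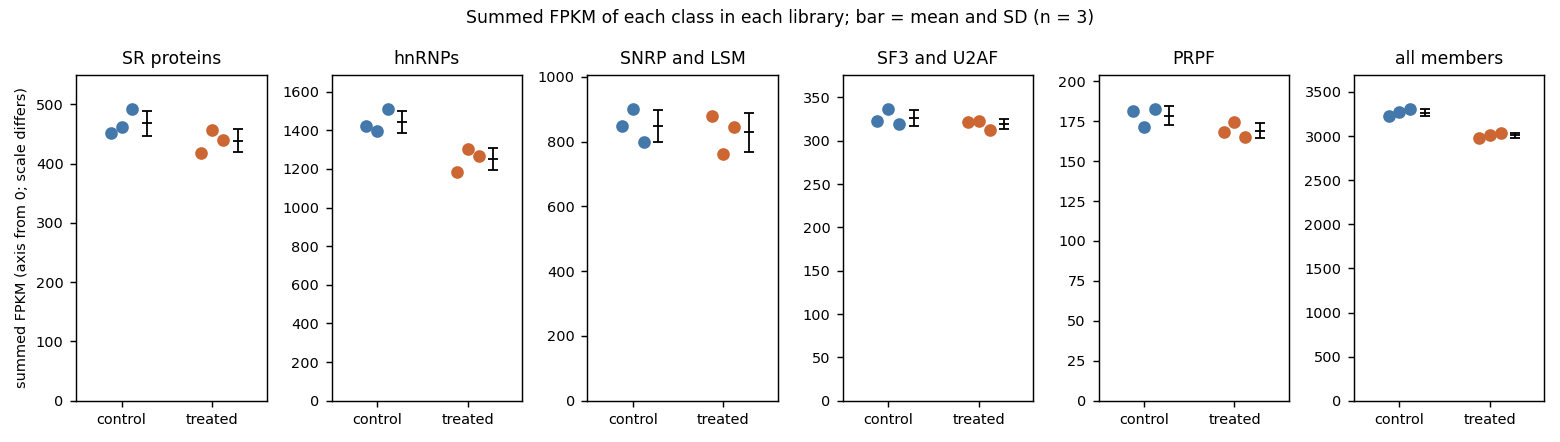
Each point is the summed FPKM of 1 class of splicing genes, or of all 72 members, in 1 library, with the mean and SD of the 3 libraries beside it on an axis that starts at 0. The hnRNP sums lie at 1399 to 1508 FPKM in the controls and 1186 to 1301 FPKM after treatment without overlap, whereas the sums of the other classes overlap.

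Among the SR proteins, SRSF7 rose (9.09%, against 8.59% of all tested features) and the other 10 passed the test in neither direction. The median log2 fold change of the 11 genes was -0.16, with 3 positive values and 8 negative ones. SRSF7, an SR protein with a zinc knuckle that also takes part in polyadenylation site choice and mRNA export, measured 32.2, 39.5 and 36.5 FPKM in the control libraries and 54.9, 63.5 and 61.6 FPKM in the treated ones. Every treated library lay above every control library by a wide margin compared with the spread within groups. The mean went from 36.1 ± 3.66 to 60.0 ± 4.51 FPKM (SD, n = 3), a log2 fold change of 0.73 ± 0.10 (SE, adjusted p = 0.00709). Over all settings its adjusted p ranged from 0.00565 to 0.0333.

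SRSF3 is the nearest relative of SRSF7 in the family and was its most abundant member. It measured 219, 136 and 216 FPKM in the control libraries and 168, 176 and 170.5 FPKM in the treated ones. Control replicate 2 was the lowest of the 6 and the other control libraries were the highest, so the groups overlapped. The log2 fold change was -0.12 ± 0.19 (adjusted p = 0.689), and without control replicate 2 SRSF3 was called lower (adjusted p = 0.0208), with a range of 0.0208 to 0.998 over all settings. SRSF5, the next most abundant, had 58.2 ± 5.85 FPKM in the controls and 53.0 ± 5.48 FPKM after treatment (adjusted p = 0.415).

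SRSF6 and SRSF10 were the SR protein genes whose treated libraries all lay below the control libraries, and neither passed the test. SRSF10, which is known to repress splicing when it is dephosphorylated after heat shock, had 8.30, 8.35 and 7.57 FPKM in the controls and 4.06, 6.96 and 5.32 FPKM after treatment. Its log2 fold change was -0.59 ± 0.20 (adjusted p = 0.0815, range 0.0239 to 0.179 over all settings), and it was called lower without treated replicate 2 (adjusted p = 0.0239). SRSF6 had 51.0, 41.9 and 52.8 FPKM and then 38.4, 40.1 and 36.9 FPKM, a log2 fold change of -0.33 ± 0.10 (adjusted p = 0.065, range 0.0221 to 0.167 over all settings). It was called lower without control replicate 2 (adjusted p = 0.0221) and after rescaling to TPM (adjusted p = 0.0465). SRSF1, the founding member of the family, was called lower without treated replicate 2 (adjusted p = 0.0258), where its full value was -0.16 ± 0.20 (adjusted p = 0.586, range 0.0258 to 0.9 over all settings). It measured 7.88, 8.55 and 8.30 FPKM in the controls and 6.25, 10.1 and 6.31 FPKM after treatment, with treated replicate 2 the highest of the 6 libraries.

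SRSF2, SRSF4 and SRSF9 each had a library that lay apart from its own group. SRSF2, which binds exonic enhancers, measured 22.3, 61.3 and 40.6 FPKM in the controls and 40.7, 23.2 and 22.7 FPKM after treatment. SRSF9 measured 31.9, 65.7 and 30.8 FPKM in the controls and 33.1 to 33.9 FPKM in all treated libraries. SRSF4 measured 16.8, 33.5 and 20.2 FPKM in the controls and 18.2, 37.6 and 36.8 FPKM after treatment. Control replicate 2 was the highest control library for all 3 genes and the lowest for SRSF3. The remaining SR protein genes, SRSF11 and SRSF12, overlapped between the groups and had adjusted p-values of 0.353 and 0.268.

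Among the hnRNPs, 4 genes fell, HNRNPU, HNRNPA3, HNRNPM and HNRNPK. Of the 17 features, 15 were tested, none rose and 11 passed in neither direction. The 4 that fell made up 26.7%, against 15.8% among all tested features. For 7 of the 15, every treated library lay below every control library, or 46.7% against 28.3%. The median log2 fold change was -0.18, with 13 negative values and 2 positive ones. Without treated replicate 2, HNRNPDL and HNRNPH1 (each at an adjusted p of 0.0317) and HNRNPR (0.0434) were called lower, and HNRNPA3 and HNRNPK were not. Without control replicate 1, control replicate 3, treated replicate 1 or treated replicate 3, HNRNPU was the only hnRNP still called. With size factors, HNRNPU and HNRNPA3 were called lower and HNRNPM and HNRNPK were not, where 12.5% of all tested features were lower. Over all settings HNRNPDL ranged from 0.0317 to 0.383 and HNRNPH1 from 0.0317 to 0.439.

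HNRNPU, also known as scaffold attachment factor A, binds RNA and chromatin and regulates splicing. It measured 56.8, 50.4 and 53.5 FPKM in the control libraries and 31.3, 36.4 and 31.2 FPKM in the treated libraries. The highest treated library was well below the lowest control library. The mean went from 53.6 ± 3.22 to 32.9 ± 2.95 FPKM (SD, n = 3), a difference of -38.5%, and the log2 fold change was -0.70 ± 0.08 (SE, adjusted p = 0.00578). Over all settings the adjusted p ranged from 0.00449 to 0.0491.

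HNRNPA3, a member of the A/B family that packages nascent transcripts, measured 65.2, 49.2 and 70.9 FPKM in the controls and 39.6, 38.0 and 41.6 FPKM after treatment. The treated libraries lay close together and below all control libraries, which spread more widely. The log2 fold change was -0.62 ± 0.14 (adjusted p = 0.0303). This call was lost without control replicate 1 (adjusted p = 0.0917), control replicate 3 (0.0749), treated replicate 1 (0.0887), treated replicate 2 (0.0766) or treated replicate 3 (0.0746), within a range of 0.0112 to 0.0917 over all settings.

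HNRNPM, which acts on exon choice in epithelial and mesenchymal programs in human cells, measured 139, 143 and 149 FPKM in the controls and 112, 127 and 113 FPKM after treatment. The groups did not overlap, and treated replicate 2 was the treated library nearest to the controls. The log2 fold change was -0.29 ± 0.07 (adjusted p = 0.0303, range 0.0169 to 0.0951 over all settings). The call was lost without control replicate 1 (0.0676), control replicate 2 (0.0728), control replicate 3 (0.0872), treated replicate 1 (0.0943) or treated replicate 3 (0.0951) and with size factors (0.0596).

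HNRNPK, which binds poly(C) stretches in RNA and DNA, measured 229.8, 218 and 224 FPKM in the controls and 205, 194 and 196 FPKM after treatment. The groups did not overlap, and the difference of the means was -11.6%, a log2 fold change of -0.18 ± 0.05 (adjusted p = 0.0406). The call rested on all 6 libraries. Leaving out control replicates 1, 2 and 3 gave adjusted p-values of 0.123, 0.061 and 0.0953, and leaving out treated replicates 1, 2 and 3 gave 0.0715, 0.086 and 0.119. It was also lost with no filter on low values (0.0532) and with size factors (0.206), and the range over all settings was 0.016 to 0.206.

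HNRNPA2B1, which recognizes RNA motifs in nascent and exported transcripts, was the most abundant hnRNP and the most abundant member overall. It measured 314, 339 and 369 FPKM in the controls and 265, 321 and 298 FPKM after treatment. Treated replicate 2 lay above control replicate 1, and the log2 fold change of -0.21 ± 0.10 did not pass the test (adjusted p = 0.166). HNRNPR, a relative of SYNCRIP, measured 53.1, 55.1 and 60.8 FPKM in the controls and 34.3, 46.5 and 43.3 FPKM after treatment. Its groups did not overlap, and its log2 fold change was -0.45 ± 0.13 (adjusted p = 0.0526, with 0.037 after rescaling to TPM, 0.046 with a filter at 5 FPKM and a range 0.037 to 0.139 over all settings).

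HNRNPL, which acts through CA-rich RNA elements, was the abundant hnRNP with the smallest difference, at 129 ± 4.06 FPKM in the controls and 129 ± 3.39 FPKM after treatment (adjusted p = 0.982). HNRNPD, HNRNPH1, HNRNPH3, HNRNPDL and HNRNPLL overlapped between the groups, with log2 fold changes of -0.22 to 0.04. HNRNPAB and the joined feature HNRNPUL1;CCDC97 did not overlap and had adjusted p-values of 0.194 and 0.0863. HNRNPH2 measured 4.50, 3.77 and 2.89 FPKM in the controls and 3.64, 2.38 and 27.4 FPKM after treatment, so that its single high value came from treated replicate 3. A neighboring readthrough feature, RPL36A-HNRNPH2, had at most 0.11 FPKM.

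The 2 hnRNP features outside the test were near 0. HNRNPF was listed at 0 in 5 libraries and at 0.02 FPKM in treated replicate 1. A separate feature without a symbol, which the table describes as hnRNP F and the rule did not take, measured 27.2, 39.6 and 75.5 FPKM in the controls and 69.6, 48.5 and 70.2 FPKM after treatment. The feature named HNRNPF is therefore not the sole record of hnRNP F in these data. The second HNRNPUL1 feature was listed at 1.26 FPKM in control replicate 3 and at 0 in the other 5 libraries.

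**Figure D3:**
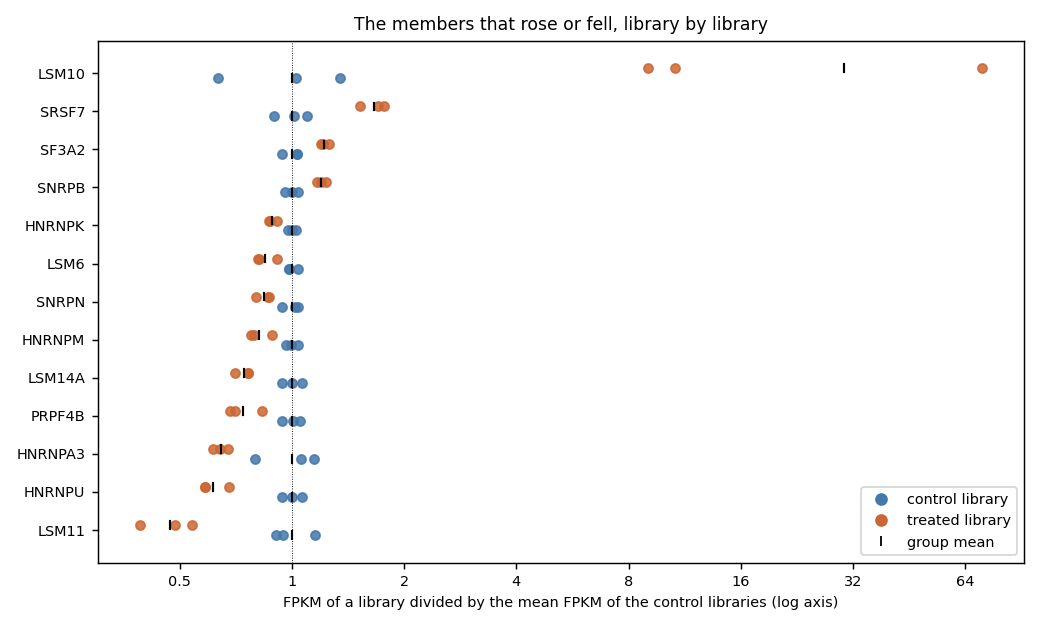
Each point is the FPKM of 1 library divided by the mean of the 3 control libraries of that gene, on a log axis, for the 13 members that rose or fell, with a tick at each group mean. The treated libraries stand apart from the control libraries for every gene shown, most of them within a factor of 2 of the control mean, and LSM10 lies far to the right with 1 treated library at 9.02 FPKM.

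Of the 10 SNRP genes, SNRPB rose, SNRPN fell and 8 passed the test in neither direction, and their median log2 fold change was -0.02. SNRPB encodes the SmB and SmB' proteins of the Sm ring that all major spliceosomal snRNPs share, apart from that of U6. SNRPB measured 145.6, 151 and 139 FPKM in the controls and 169, 174 and 179 FPKM after treatment. Control and treated libraries did not overlap, and the log2 fold change was 0.26 ± 0.05 (adjusted p = 0.0187, range 0.0131 to 0.11 over all settings). It was no longer called without control replicate 1 (0.0623), control replicate 3 (0.0519) or treated replicate 3 (0.0652), and after quantile normalization (0.11).

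SNRPN encodes SmN, a close relative of SmB that is best known from the brain. It measured 22.4, 22.8 and 20.6 FPKM in the controls and 18.9, 19.0 and 17.6 FPKM after treatment. The groups did not overlap, and the log2 fold change was -0.24 ± 0.07 (adjusted p = 0.0476, range 0.0147 to 0.131 over all settings). The call was lost without each library in turn, at 0.131, 0.122 and 0.0551 for control replicates 1, 2 and 3 and 0.105, 0.069 and 0.129 for treated replicates 1, 2 and 3. It was also lost with size factors (0.119) and quantile normalization (0.0676). SNRPB and SNRPN encode near-identical proteins, and no source used here says how reads that match both were assigned.

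The other Sm ring genes found were SNRPD2, SNRPD3, SNRPF and SNRPG, and none passed the test. SNRPD2 had 127 ± 15.9 FPKM in the controls and 129 ± 8.30 FPKM after treatment (adjusted p = 0.908), and SNRPD3 had 83.5 ± 17.3 and 87.5 ± 28.1 FPKM (adjusted p = 0.921). SNRPG measured 100.4, 116 and 84.9 FPKM in the controls and 99.7 and 100.5 FPKM in treated replicates 1 and 3, and was listed at 0 in treated replicate 2. An exact 0 beside about 100 FPKM in the other libraries can be a failed estimate, so its fold change is neither given nor plotted. It stays in the counts and medians, and without it the median log2 fold change was 0.02 for the SNRP genes in place of -0.02 and -0.11 for the members in place of -0.12. The 6 Sm ring genes, with that 0 counted, summed to 504 ± 24.1 FPKM in the controls and 499 ± 75.0 FPKM after treatment, and the 5 without SNRPG to 404 ± 11.9 and 432 ± 23.7 FPKM with overlap.

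Among the SNRP genes, those for proteins specific to single snRNPs (SNRPA, SNRPC, SNRPA1 and SNRPB2) also passed the test in neither direction. Genes whose symbol begins with SNRNP were not taken by the rule. SNRPA and SNRPC, of the U1 snRNP that recognizes the 5′ splice site, had log2 fold changes of 0.04 ± 0.11 and 0.35 ± 0.16 (adjusted p = 0.835 and 0.172). SNRPA1 and SNRPB2, of the U2 snRNP that pairs with the branch site, had -0.06 ± 0.10 and -0.29 ± 0.10 (adjusted p = 0.71 and 0.0932). SNRPB2 measured 23.3, 24.9 and 24.9 FPKM in the controls and 19.0, 22.9 and 18.2 FPKM after treatment without overlap. It was called lower without treated replicate 2 (adjusted p = 0.0195) and after rescaling to TPM (0.0476), with a range 0.0195 to 0.226 over all settings.

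LSM2 to LSM8 form the ring of the U6 snRNP. Of these 7 genes, 6 passed the test in neither direction and 1 fell (14.3%, against 15.8% of all tested features). Their median log2 fold change was -0.15, and their summed level went from 202 ± 22.5 to 176 ± 11.6 FPKM with overlap between the groups. LSM6 was the one that fell, from 44.0, 44.1 and 46.6 FPKM in the controls to 36.6, 41.0 and 36.4 FPKM after treatment. Its log2 fold change was -0.24 ± 0.07 (adjusted p = 0.0496, range 0.0245 to 0.143 over all settings). It was no longer called without control replicates 1, 2 or 3 (0.106, 0.0964 and 0.129), without treated replicates 1 or 3 (0.143 and 0.136), with no filter on low values (0.0549) and with size factors (0.11). LSM8, which sets the nuclear ring apart from the cytoplasmic one, also had all treated libraries below the controls (37.1 ± 1.81 against 33.4 ± 1.57 FPKM), with an adjusted p of 0.144. LSM7, LSM3 and LSM5 had adjusted p-values of 0.402 to 0.74 with overlapping groups.

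The LSM rule also took 6 genes that act mainly outside the spliceosome. Of these, 1 rose and 2 fell (16.7% and 33.3%, against 8.59% and 15.8% of all tested features). Without these 6 genes, 3 members rose and 7 fell in all, a count made after the data were seen. LSM14A, a component of cytoplasmic RNA granules that also acts as a sensor of viral nucleic acid, measured 14.1, 13.2 and 15.0 FPKM in the controls and 9.93, 10.7 and 10.8 FPKM after treatment. Control and treated libraries did not overlap, and the log2 fold change was -0.42 ± 0.07 (adjusted p = 0.0136). Its call was held with each library left out. With the replicate number in the model, the LSM14A call was lost (0.0621), within a range of 0.00963 to 0.0621 over all settings.

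LSM10 and LSM11 form part of the U7 snRNP, which processes the 3′ end of histone pre-mRNA, and the calls of these genes went in opposite directions at low levels. LSM11 measured 1.71, 1.40 and 1.34 FPKM in the controls and 0.72, 0.80 and 0.58 FPKM after treatment, a log2 fold change of -0.99 ± 0.19 (adjusted p = 0.0183, range 0.0143 to 0.0672 over all settings). The call was lost without control replicate 1 (0.0672), control replicate 2 (0.0507), treated replicate 1 (0.0566) or treated replicate 3 (0.0524). LSM10 measured 0.17, 0.08 and 0.13 FPKM in the controls and 1.35, 9.02 and 1.14 FPKM after treatment. Treated replicate 2 lay far above the other treated libraries, and all 3 lay above the controls. The log2 fold change was 3.51 ± 0.81 (adjusted p = 0.0301, range 0.0175 to 0.0948 over all settings), a value that depends on the pseudocount because the control level is close to it. The LSM10 call was lost without control replicates 1, 2 or 3 (0.0752, 0.0793 and 0.0816), without treated replicate 1 (0.0597) and with a pseudocount of 1 (0.0948).

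LSM12 measured 4.62, 6.34 and 4.86 FPKM in the controls and 18.7, 4.94 and 18.8 FPKM after treatment. Treated replicates 1 and 3 lay far above all other libraries, and treated replicate 2 lay within the control range. With all libraries the log2 fold change was 1.19 ± 0.55 (adjusted p = 0.171, range 0.00817 to 0.367 over all settings), and without treated replicate 2 LSM12 was called higher (adjusted p = 0.00817). LSM14B was called higher without control replicate 2 (0.0194), where its full adjusted p was 0.154 (range 0.0194 to 0.331 over all settings). LSM1, of the cytoplasmic ring that promotes mRNA decay, overlapped between the groups (adjusted p = 0.803).

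**Figure D4:**
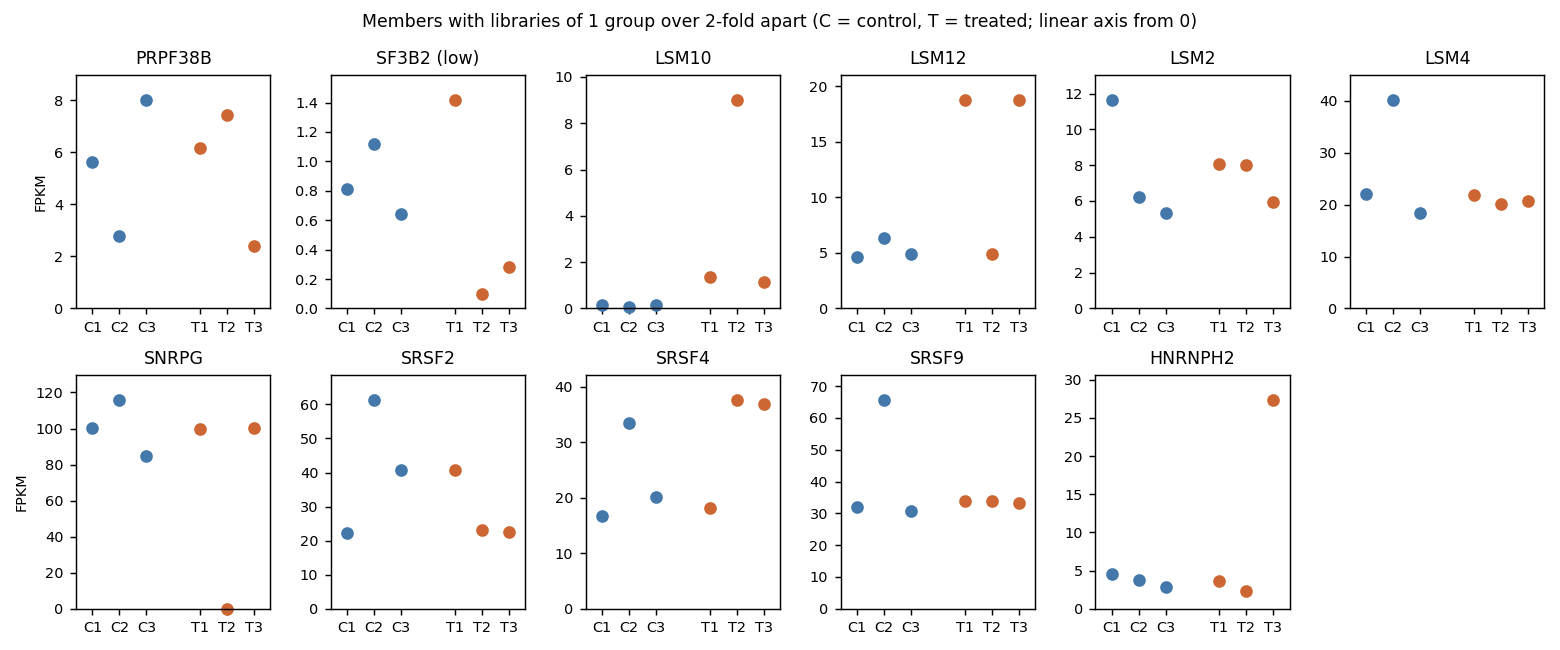
FPKM in each of the 6 libraries (C1 to C3 control, T1 to T3 treated), on linear axes from 0, for the 11 member features with libraries of 1 group more than 2-fold apart. LSM12 is high in 2 of 3 treated libraries, SNRPG is at 0 in treated replicate 2, HNRNPH2 is high in treated replicate 3, and SRSF2, SRSF9 and LSM4 are highest in control replicate 2.

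The share of members with such gaps within a group was near that of all features. Of the 51 members averaging 10 FPKM or more, 5 had libraries of 1 group more than 2-fold apart (9.80%), against 493 of the 4613 tested features at that level (10.7%). LSM4 was one of them, with 40.2 FPKM in control replicate 2 against 18.3 to 22.0 FPKM in the other 5 libraries. LSM2 had a gap of the same kind at a lower level, with 11.7 FPKM in control replicate 1 and 5.31 to 8.06 FPKM elsewhere.

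Of the 9 SF3 and U2AF features, SF3A2 rose (11.1%, against 8.59% of all tested features). The other 8 passed the test in neither direction. SF3A2 is a subunit of the SF3A complex, which joins the U2 snRNP at the branch site. It measured 18.3, 20.1 and 20.1 FPKM in the controls and 24.5, 23.4 and 23.7 FPKM after treatment. The groups did not overlap, and the log2 fold change was 0.29 ± 0.06 (adjusted p = 0.0241, range 0.0128 to 0.0947 over all settings). It was no longer called without control replicates 1, 2 or 3 (0.0675, 0.0502 and 0.0534), without treated replicates 1 or 3 (0.0823 and 0.07) and after rescaling to TPM (0.0705).

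The partners of SF3A2 in the same complex, SF3A1 and SF3A3, lay on the other side, with all treated libraries below all control libraries. SF3A1 had 29.4 ± 0.466 FPKM in the controls and 27.4 ± 2.02 FPKM after treatment (adjusted p = 0.324), and SF3A3 had 39.3 ± 1.77 and 36.3 ± 0.201 FPKM (adjusted p = 0.177). SF3B1, the largest SF3B subunit and the one that contacts the branch site, measured 45.2, 44.4 and 49.3 FPKM in the controls and 38.4, 44.8 and 38.4 FPKM after treatment. Treated replicate 2 lay within the control range, and the log2 fold change was -0.19 ± 0.08 (adjusted p = 0.155). SF3B3 and SF3B5 overlapped between the groups, with adjusted p-values of 0.599 and 0.546.

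SF3B2 was listed as 2 features. The abundant one had 58.9 ± 1.94 FPKM in the controls and 58.9 ± 0.882 FPKM after treatment (adjusted p = 0.997), and the other had 0.10 to 1.42 FPKM. U2AF2, the large U2AF subunit that binds the polypyrimidine tract, had 53.6 ± 5.73 and 50.3 ± 0.81 FPKM (adjusted p = 0.487). A joined feature, TP53I3;SF3B6, which the rule did not take because the symbol does not begin with SF3B, had 28.2 to 31.7 FPKM in the controls and 34.5 to 36.0 FPKM after treatment. The share of either gene in that feature is not known.

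Among the 12 PRPF genes, PRPF4B fell (8.33%, against 15.8% of all tested features) and the others passed the test in neither direction. The median log2 fold change of the 12 genes was -0.03, which turned to 0.04 with size factors and 0.03 after quantile normalization. PRPF4B, a kinase that phosphorylates splicing factors of the tri-snRNP, measured 11.1, 10.3 and 11.6 FPKM in the controls and 7.72, 9.13 and 7.51 FPKM after treatment. Control and treated libraries did not overlap, and the log2 fold change was -0.44 ± 0.10 (adjusted p = 0.0278, range 0.0162 to 0.101 over all settings). The call was lost without control replicates 1, 2 or 3 (0.0828, 0.0508 and 0.0834) and without treated replicates 1 or 3 (0.09 and 0.0836).

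PRPF8, the core scaffold of the spliceosome, measured 46.0, 43.7 and 44.0 FPKM in the controls and 40.4, 38.5 and 41.7 FPKM after treatment. All treated libraries lay below the controls, but the log2 fold change of -0.15 ± 0.05 did not pass the test (adjusted p = 0.0995, with 0.0358 after rescaling to TPM and a range 0.0358 to 0.461 over all settings).

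PRPF39 also had every treated library below the controls (adjusted p = 0.102), whereas PRPF4, PRPF6 and PRPF40B had every treated library above them (adjusted p = 0.13 to 0.382). PRPF6, a tri-snRNP protein, was called higher with size factors (0.0467, range 0.0467 to 0.672 over all settings). PRPF19, the ubiquitin ligase of the complex that joins during activation, differed least, at 35.7 ± 0.897 and 35.5 ± 0.458 FPKM (adjusted p = 0.949). PRPF3 and PRPF31, tri-snRNP proteins, overlapped between the groups at 11.8 and 13.1 FPKM and at 20.9 and 21.4 FPKM, in that order of control and treated means. PRPF38B, with 2.39 to 8.03 FPKM, and PRPF38A, with 2.53 to 5.32 FPKM, varied as much within the groups as between them.

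Splicing factors outside the naming rule gave a pathway context. From 4 lists of 169 symbols, 140 genes were found and tested, of which 10 rose, 43 fell and 87 passed the test in neither direction. The 43 that fell made up 30.7%, against 15.8% of all tested features and 12.9% of the members. The 10 that rose made up 7.14%, against 8.59% and 5.71%. The median log2 fold change of the 140 genes was -0.16. These shares are descriptions, and the difference between the members and the other factors was not tested. Leaving out control replicates 1 or 3 gave 27 and 27 genes that fell, and leaving out treated replicates 1 or 3 gave 21 and 25. In that order, 8.7%, 9.2%, 8.58% and 8.93% of all tested features then fell.

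**Figure D5:**
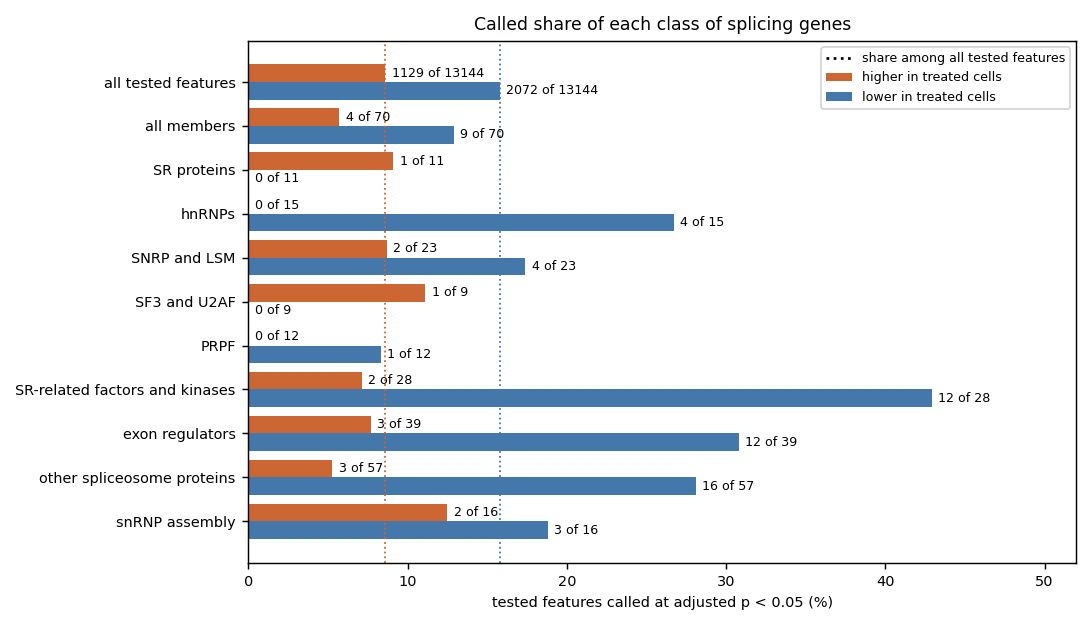
Bars give the percentage of tested features that rose (orange) or fell (blue) at an adjusted p below 0.05, with the number called of the number tested beside each bar and dotted lines at the shares of all tested features, 8.59% and 15.8%. The members as a whole lie below both lines, the hnRNPs reach 26.7% lower, and the SR-related factors and kinases reach 42.9% lower.

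Of the partners and modifiers of SR proteins, 12 of 28 fell (42.9%) and 2 rose (7.14%). Among all tested features, these shares were 15.8% and 8.59%. THRAP3 and BCLAF1, related arginine/serine-rich proteins that act in splicing and transcription, fell from 44.1 ± 2.03 to 22.9 ± 1.91 FPKM (log2 fold change -0.94, adjusted p = 0.00251) and from 24.0 ± 4.29 to 10.8 ± 1.28 FPKM (-1.14, adjusted p = 0.00709). U2SURP, an SR-related protein of the U2 snRNP, fell from 8.06 ± 0.901 to 4.20 ± 0.497 FPKM (-0.93, adjusted p = 0.0072). JMJD6, a lysyl hydroxylase that acts on U2AF2 and other splicing proteins, rose from 8.79, 7.87 and 9.39 FPKM to 28.9, 25.9 and 27.4 FPKM (1.65, adjusted p = 0.000834). All 4 calls were held under every setting tried. Of the kinases that phosphorylate SR proteins, CLK1 (10.8 and 5.66 FPKM in control and treated cells, adjusted p = 0.00992) and SRPK2 (16.7 and 11.6 FPKM, adjusted p = 0.0182) fell, and CLK3 (30.3 and 38.5 FPKM, adjusted p = 0.0131) rose. With the replicate number in the model, the CLK1 and CLK3 calls were lost (0.0556 and 0.0682). The SRPK2 call was lost without control replicates 1 or 3 (0.0536 and 0.0604) or treated replicates 1 or 3 (0.0577 and 0.0626), within a range of 0.0106 to 0.067. SRPK1, CLK4 and DYRK1A, kinases of the same list, passed in neither direction (adjusted p = 0.69, 0.0668 and 0.117), and CLK4 was called lower after rescaling to TPM (0.0453, range 0.0453 to 0.183).

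Among the regulators of exon choice, 12 of 39 fell (30.8%, against 15.8% of all tested features) and 3 rose (7.69%, against 8.59%). MBNL3, a muscleblind protein, fell from 8.07 ± 1.16 to 3.32 ± 0.16 FPKM (log2 fold change -1.25, adjusted p = 0.00352), and its relatives MBNL1 and MBNL2 fell as well (adjusted p = 0.00602 and 0.0466). The MBNL2 call was lost without control replicates 1, 2 or 3 (0.106, 0.0805 and 0.125), without treated replicates 1 or 3 (0.087 and 0.107), with no filter on low values (0.0621), with size factors (0.0793) and after quantile normalization (0.0659), within a range of 0.0332 to 0.125. SYNCRIP, the hnRNP Q protein whose symbol the rule did not take, fell from 37.7 ± 3.07 to 18.8 ± 2.25 FPKM (adjusted p = 0.00428). RBM15, an RNA-binding protein that guides RNA methylation, fell from 2.14 to 1.05 FPKM (-0.95, adjusted p = 0.00817). The RBM15 call was lost with the replicate number in the model (0.0552). RBM38 rose from 1.62, 1.77 and 1.54 FPKM to 4.74, 4.23 and 4.72 FPKM (1.42, adjusted p = 0.0016).

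Of 57 other spliceosome proteins, 16 fell (28.1%, against 15.8% of all tested features) and 3 rose (5.26%, against 8.59%). GCFC2 fell from 1.69 ± 0.372 to 0.40 ± 0.0624 FPKM (log2 fold change -1.83, adjusted p = 0.00626). SMNDC1, a relative of the SMN protein that acts in spliceosome assembly, rose from 17.9 ± 0.766 to 28.8 ± 3.42 FPKM (0.68, adjusted p = 0.00845). The SMNDC1 call was lost with the replicate number in the model (0.0536). CWC22, which places the exon junction complex, fell (-1.10, adjusted p = 0.0217), and the call was lost without control replicate 1 (0.0602), treated replicate 1 (0.0676) or treated replicate 3 (0.0654), within a range of 0.0197 to 0.0688. SLU7, a factor of the second catalytic step, fell (-0.72, adjusted p = 0.0221), and the call was lost without control replicates 2 or 3 (0.053 and 0.0587) or treated replicate 1 (0.0516), within a range of 0.0186 to 0.0587.

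Of 16 genes for the assembly and transport of snRNPs, 3 fell (18.8%) and 2 rose (12.5%). Among all tested features, these shares were 15.8% and 8.59%. CLNS1A, a chaperone that delivers Sm proteins to the assembly machinery, rose from 11.5, 9.10 and 10.4 FPKM to 21.6, 22.7 and 22.1 FPKM (log2 fold change 1.10, adjusted p = 0.00251). WDR77, which works with CLNS1A in the methylation of Sm proteins, fell from 9.01 ± 0.794 to 6.65 ± 0.286 FPKM (-0.43, adjusted p = 0.0204). The WDR77 call was lost without control replicate 1 (0.0609), treated replicate 1 (0.0529) or treated replicate 3 (0.0676), within a range of 0.0162 to 0.0813. PHAX, an export adaptor of spliceosomal snRNA, fell (-0.60, adjusted p = 0.0224, range 0.0115 to 0.0755). The PHAX call was lost without control replicates 1, 2 or 3 (0.0615, 0.0506 and 0.0698) and treated replicates 1 or 3 (0.0686 and 0.073). GEMIN5, the subunit of the SMN complex that recognizes snRNA, fell (-0.39, adjusted p = 0.0271, range 0.0213 to 0.0967), and the call was lost without control replicates 1, 2 or 3 (0.0788, 0.0533 and 0.0782), without treated replicates 1 or 3 (0.0842 and 0.0786) and after quantile normalization (0.0693).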

How the data were processed

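The authors deposited 1 table with an FPKM value, rounded to 2 decimals, for each feature and library. The authors aligned reads with Hisat 2.0 and named Cutadapt, FastQC and Cufflinks. Per the submitters' processing notes, StringTie 1.3.0, HISAT2 2.0 and Bowtie 0.12.2 were used with the ARS-UCD1.2 genome. A stranded library kit is named, but no source used here gives the strand setting of the quantification or the handling of reads that match several genes, so overlapping genes and near-identical copies may share reads. Of 18014 features, 4213 carry no symbol and could not be taken by the rule. Sample titles gave the groups.

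The test was limma 3.58.1 in R 4.3.3 (lmFit, eBayes with trend) on log2(FPKM + 0.1), two-sided, for features averaging at least 0.5 FPKM. Tables were made with pandas 2.3.3 in Python 3.11.15. Fold changes are on that scale, which understates those of low genes, and each value given after ± beside a log2 fold change is a standard error. Adjusted p-values are by Benjamini-Hochberg over all 13144 features. As the values were FPKM, the count test of the study was not run. When a library was left out, the filter was applied to the remaining 5. The smallest two-sided p of an exact permutation test for 3 against 3 libraries is 0.1. The procedure was tested on simulated data.

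The members and the gene lists were chosen with earlier results of these data known. Named genes were set by a rule: of each class, up to 6 called members with the largest change and the 3 most abundant, members listed as several features, members at 0 in some libraries only or with a gap over 3-fold within a group, and up to 4 called genes of each other list. Other genes named for their values were chosen after these were seen. The values of 1 member are not reported here, although it is counted. Figures were drawn with matplotlib 3.10.9.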

Additional observations from a re-analysis of the deposited data

How the results depend on the processing

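The alternatives changed the pseudocount (1 or 0.01), the filter (none, or 5 FPKM), the scaling (TPM, size factors, quantile normalization), the model (a replicate block), the features (1 per symbol) and the libraries (each left out). Of 622 alternative log2 fold changes of 45 named genes, 95 lost the call, 4 gained one and 23 turned sign, in 7 genes that passed in neither direction. These were PRPF19 (0.0731 with size factors, -0.0174 to 0.0155 without 1 library), PRPF31 (-0.0541 on TPM), PRPF38B (0.0167 with size factors, 0.0703 after quantile normalization, -0.48 to 0.43 without 1 library), SF3B2 (-0.0897 on TPM, -0.0443 after quantile normalization, -0.0198 to 0.0262 without 1 library), SNRPD2 (-0.07 on TPM, -0.0406 after quantile normalization, -0.0633 to 0.11 without 1 library), SNRPD3 (-0.0459 on TPM, -0.20 to 0.20 without 1 library) and HNRNPH2 (-0.30 to 1.43 without 1 library). The 4 members that rose became 1 to 5 and the 9 that fell 2 to 13 without 1 library. The 9 became 15 after TPM and 5 with size factors. At the thresholds of the study, the 1 member became 2 with a pseudocount of 0.01 or TPM, 0 with the filter at 5 FPKM, and 1 to 3 without 1 library. Of other splicing factors, 7 to 9 rose and 21 to 40 fell without 1 library. Over all features, calls numbered 1689 to 2954 without 1 library against 3201, with 561 to 952 higher against 1129 and 1128 to 2002 lower against 2072, and 1348 lower with the filter at 5 FPKM. The cause was not tested. The median of all features was -0.08 on FPKM, -0.17 on TPM and -0.01 with size factors or quantile normalization, where that of the members was -0.12, -0.21, -0.04 and -0.12.

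Replicate numbers are shared by the groups. Deviations of same-numbered libraries from their group means correlated at -0.0124, 0.00109 and 0.0102. Values this small cannot show whether same-numbered libraries shared a culture, day or donor, and no source used here says so. With the replicate block, 1 member rose and 1 fell, 4 other splicing factors rose and 15 fell, and 847 features were called, 320 higher and 527 lower.

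The table holds no counts, so counting error could not be given, and low genes such as LSM10 and LSM11 are the least certain.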
